A study of Mus musculus with 6 samples.

Results

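The genes described here encode the axon guidance families: semaphorins with their plexin and neuropilin receptors, ephrins, Slits with their Robo receptors, and netrins with their receptors. They were taken by gene symbol from the protein-coding rows of the deposited expression table, with the ephrin receptors left out, which gave 54 of 22046 protein-coding genes and of 54532 genes in all. The libraries are polyadenylated RNA of mouse ovarian granulosa cells of wild-type genotype, kept in DMEM/F12 with serum. They form a group of 3 exposed to cyclophosphamide for 24 h and a group of 3 left untreated. Cyclophosphamide is an alkylating chemotherapy drug that cytochrome P450 enzymes, chiefly of the liver, turn into its active form. The treatment label of the exposed samples names an injection into the abdomen, whereas the protocol and design describe adherent cultured cells that received it, and the sources used here give no concentration. Nothing says that the 3 libraries of a group came from separate cultures or animals, so the p-values measure the spread between these libraries, which may be technical.

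Guidance cues were named for steering growing axons, and the same proteins guide blood vessels and arrange cells within epithelia. Semaphorins are secreted or membrane-bound ligands that bind plexins, and most secreted class 3 semaphorins need a neuropilin as coreceptor. Plexins signal through GTPase-activating domains that act on small GTPases and so loosen adhesion and the actin cytoskeleton. Ephrins sit on the cell surface and bind Eph receptor kinases on the neighbouring cell. Slits are large secreted proteins read by Robo receptors, and Slit and Robo genes are known to be expressed in the ovary. Netrins bind DCC, neogenin and UNC5 receptors, and UNC5 receptors and DCC can trigger cell death when no ligand is bound.

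Most guidance genes fell with cyclophosphamide. Of the 54 genes, 50 had enough reads to be tested, and 35 of these fell, 7 rose and 8 were not called (limma on log2(FPKM + 0.1), Benjamini-Hochberg adjusted p under 0.05). FPKM are read numbers divided by the length of the gene and the depth of the library. Over all 14885 genes tested, 35.8% fell and 33.1% rose, 68.9% in either direction. At least 2-fold lower, with a log2 fold change of -1 or less, were 25 guidance genes, against 16.6% of all genes tested. The 50, the 35 and the 25 all include Unc5a, which passed the filter on low counts through the untreated libraries alone. Its call carries no weight. At least 2-fold higher were 2 guidance genes, Efna1 and Robo3, against 10.0% of all genes tested. The median log2 fold change was -0.92 for the 50 guidance genes and -0.02 for all genes tested. The median of the guidance genes depended on the scale, at -0.46 with a pseudocount of 1 and -1.28 in limma-voom, a model of the recovered reads, while that of all genes was -0.01 and 0.001. In 43 of the 50 the libraries of the 2 groups did not overlap, as in 73.1% of all genes tested. In bulk RNA, fewer cells that make a transcript and less of it per cell cannot be told apart. The 22 genes named for a change have an adjusted p under 0.05, a log2 fold change of at least 1 in size and a mean of at least 1 FPKM in either group, and a further 6 are named for their high level.

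**Figure D1:**
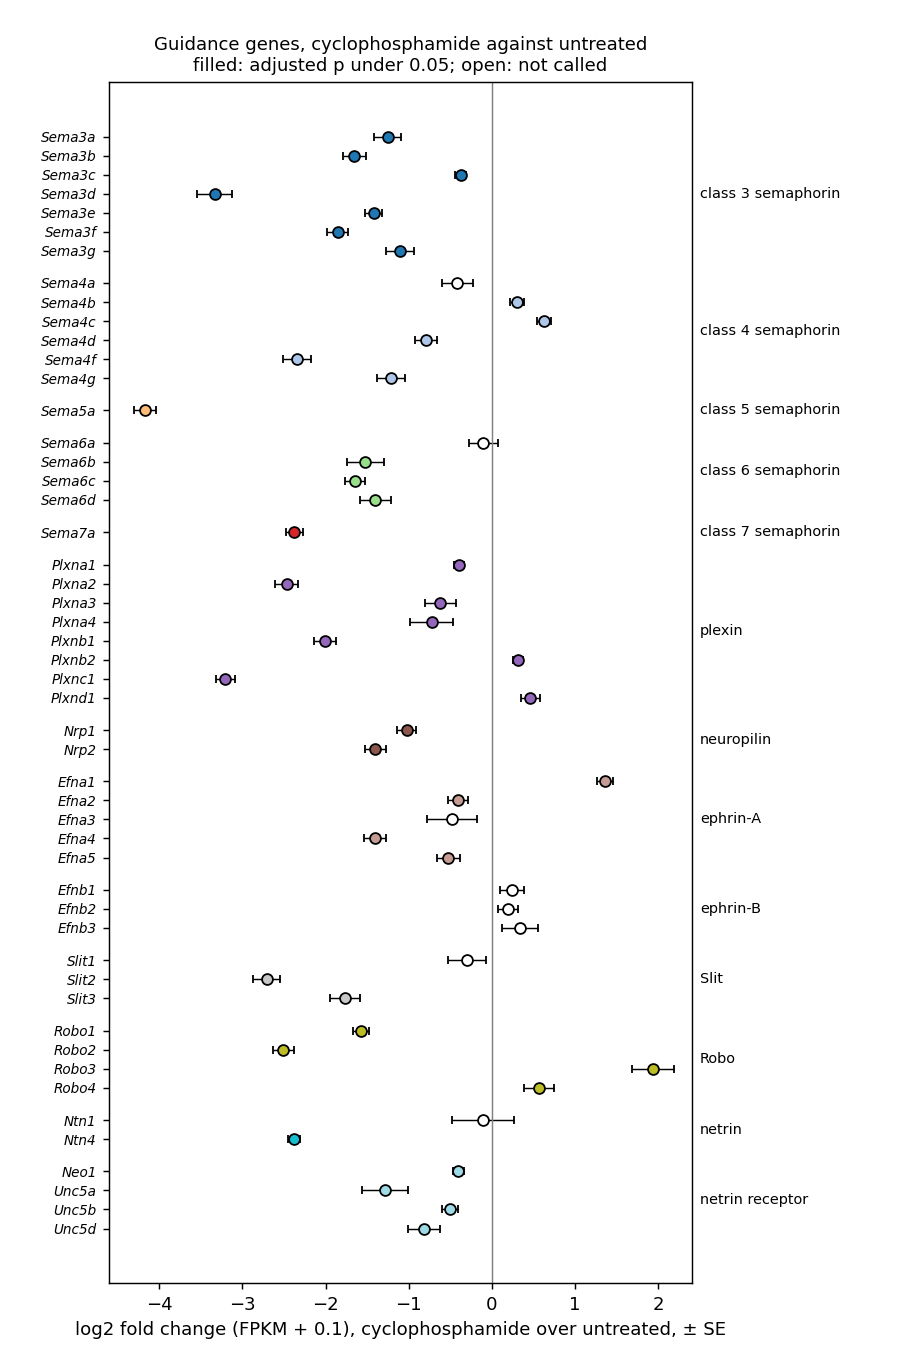
Log2 fold change (FPKM + 0.1) of the 50 guidance genes tested, cyclophosphamide over untreated, with its SE, grouped by role. Filled points passed the threshold. Sema5a lies lowest at -4.17, and Robo3 at 1.93 and Efna1 at 1.36 lie highest.

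The libraries differed little in depth, with 16458385 to 17607586 recovered reads each. Granulosa markers were present, with Foxl2 at 22.2 to 25.5 FPKM in cyclophosphamide and 30.7 to 34.2 FPKM in untreated libraries, although the aromatase gene Cyp19a1 had 1 read with cyclophosphamide and 3 without. Of 14 granulosa markers tested, 11 fell and 2 rose, and the summed level of the 16 listed was 1302 to 1644 FPKM with cyclophosphamide and 3119 to 3334 FPKM without. Inha made up most of the sum in both groups. Endothelial markers, given because Robo4, Plxnd1 and Nrp1 are also vascular genes, summed to 2.10 to 2.69 FPKM with cyclophosphamide and 0.791 to 1.01 FPKM without it, over 10 genes. Cldn5 was at 0, and Esam was the gene called among 3 tested, at 1.67, 1.73 and 2.00 FPKM with cyclophosphamide against 0.235, 0.260 and 0.289 FPKM without. Smooth muscle and pericyte markers summed to 14.7 to 25.3 FPKM with cyclophosphamide against 83.7 to 94.8 FPKM without it, over 9 genes, with 2 of 8 tested higher and 4 lower. Acta2 made up most of the untreated sum, at 89.0, 86.4 and 78.5 FPKM, and was at 16.5, 4.48 and 7.96 FPKM with cyclophosphamide. The 2 that rose were Notch3 (log2 fold change 1.86) and Pdgfrb (0.87). Neuron and glia markers summed to 2.21 to 5.76 FPKM with cyclophosphamide against 35.7 to 41.4 FPKM without it, over 9 genes. The tubulin gene Tubb3 made up most of that sum, and Sox10 was at 0. Macrophage and leukocyte markers summed to 11.7 to 15.7 FPKM with cyclophosphamide against 7.68 to 8.74 FPKM without it, over 12 genes, with 3 of 4 tested higher, 1 lower and Cd3e at 0. The 3 that rose were Csf1r, Cd68 and Cd14, and Lyz2 fell. Ptprc had 7 reads with cyclophosphamide and 9 without, and C1qa had 2 and 10. Theca and stroma markers summed to 7.94 to 9.42 FPKM with cyclophosphamide against 25.5 to 31.3 FPKM without it, over 8 genes, with 2 of 4 tested lower. The 2 were the collagen genes Col1a1 and Col3a1, which made up most of the sum in both groups. Pdgfra (0.40, adjusted p = 0.11) and Dcn (-0.75, adjusted p = 0.073) were not called. The theca gene Cyp17a1 had 8 reads with cyclophosphamide and 1 without, Insl3 had 0 and 1, and Lhcgr had 5 and 35. Surface epithelium markers summed to 50.2 to 73.3 FPKM with cyclophosphamide against 106.5 to 120.2 FPKM without it, over 7 genes, with 4 of 5 tested lower. The keratin genes Krt8 and Krt18 made up most of the sum in both groups, and Msln was not called (-0.07, adjusted p = 0.83). Krt19 and Upk3b, also lower, had 16 and 13 reads with cyclophosphamide and 84 and 124 without. They passed the filter on low counts through the untreated libraries alone, so their calls carry no weight. Oocyte markers summed to 3.20 to 4.73 FPKM with cyclophosphamide against 0.936 to 1.37 FPKM without it, over 10 genes, with 2 of 3 tested higher. Gdf9 made up most of the sum with cyclophosphamide. The part of any of these cell types in the guidance genes was not tested.

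All 7 class 3 semaphorins, the secreted ligands, fell. Sema3d, a vascular and neural repellent, fell most, with 2.28, 1.13 and 1.60 FPKM in cyclophosphamide libraries against 17.7, 16.9 and 16.7 FPKM in untreated libraries. Its log2 fold change was -3.33 ± 0.21 (SE, adjusted p = 6.2e-06), and the groups were far apart although the drug libraries spread more widely. Sema3b, known as a tumour suppressor gene, had 3.46, 2.52 and 2.73 FPKM with cyclophosphamide and 8.59, 10.6 and 8.78 FPKM without, a log2 fold change of -1.66 ± 0.14. Sema3e, the ligand that binds plexin D1 directly, had 2.16, 2.28 and 2.34 FPKM with cyclophosphamide and 5.85, 6.02 and 6.84 FPKM without (-1.42 ± 0.10). Neither gene had overlapping groups. Sema3f, a neuropilin 2 ligand, had 0.631, 0.666 and 0.668 FPKM with cyclophosphamide and 2.47, 2.81 and 2.62 FPKM without (-1.85 ± 0.13, or -1.13 with a pseudocount of 1). Sema3a, the founding collapsin and a neuropilin 1 ligand, and Sema3g stayed under 1 FPKM in every library and fell by 1.25 and 1.10 on the log2 scale, or 0.46 and 0.45 with a pseudocount of 1. Sema3c, a ligand of both neuropilins, was the most abundant of the class and changed least, with 14.97, 16.3 and 15.1 FPKM with cyclophosphamide and 20.9, 19.2 and 20.1 FPKM without (-0.38 ± 0.07, adjusted p = 0.0013). Summed over the class, the level was 22.9 to 24.1 FPKM with cyclophosphamide and 56.5 to 57.1 FPKM without.

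The neuropilin coreceptors and the A-type plexins, through which class 3 semaphorins signal, were also lower. Nrp1, which also binds VEGF, had 2.94, 2.29 and 2.54 FPKM in cyclophosphamide libraries and 5.26, 5.18 and 5.62 FPKM in untreated libraries, a log2 fold change of -1.03 ± 0.12 (SE, adjusted p = 0.00012). Nrp2 had 1.52, 2.00 and 1.82 FPKM with cyclophosphamide and 4.79, 4.63 and 5.12 FPKM without (-1.40 ± 0.13, adjusted p = 3.5e-05). In both genes every drug library lay below every untreated library. Plxna2 had 1.10, 0.858 and 1.06 FPKM with cyclophosphamide and 5.60, 5.73 and 6.71 FPKM without (-2.47 ± 0.14, adjusted p = 3.7e-06). Plxna1, the most abundant A-type plexin, had 49.3, 48.2 and 51.2 FPKM with cyclophosphamide and 64.6, 67.3 and 63.9 FPKM without (-0.40 ± 0.06, adjusted p = 0.00046). Plxna1 thus differed by less than Plxna2 on the log2 scale while its groups were also separate. Plxna3 fell by 0.62 (SE 0.19, adjusted p = 0.018), with adjusted p = 0.051 without untreated replicate 2 and a fold change of -0.41 without cyclophosphamide replicate 1. Plxna4 held 25 reads with cyclophosphamide and 89 without, and its call (log2 fold change -0.72, adjusted p = 0.034) was lost without any 1 of 5 libraries, all but untreated replicate 3. The Plxna4 value was -0.12 with a pseudocount of 1 (adjusted p = 0.085) and -1.83 in limma-voom.

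The ligand and receptor pair Sema7a and Plxnc1 fell together. Semaphorin 7A is a GPI-anchored semaphorin that binds plexin C1 and integrins. Sema7a (ENSMUSG00000038264) had 6.19, 6.31 and 5.63 FPKM in cyclophosphamide libraries against 27.4, 34.4 and 34.0 FPKM in untreated libraries. Its log2 fold change was -2.38 ± 0.10 (SE, adjusted p = 1.2e-06), and no libraries overlapped. Plxnc1 (ENSMUSG00000074785) had 6.71, 7.69 and 5.77 FPKM with cyclophosphamide against 60.5, 57.6 and 69.5 FPKM without. With a log2 fold change of -3.20 ± 0.12 (adjusted p = 6.6e-07), it had the largest fall among the receptors, and it was among the most abundant plexins in untreated cells. Sema5a (ENSMUSG00000022231), a transmembrane semaphorin with thrombospondin repeats, had the largest fall of all 50 genes. It had 1.79, 1.22 and 1.34 FPKM with cyclophosphamide against 28.04, 26.6 and 27.9 FPKM without, a log2 fold change of -4.17 ± 0.13 (adjusted p = 4.6e-07). Its reads numbered 1391 with cyclophosphamide and 26027 without, so depth does not limit this value. In GRCm38 Sema7a spans chr9:57940112-57962865, Plxnc1 chr10:94790866-94944835 and Sema5a chr15:32244810-32696341.

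The promoters of these 3 genes are shown because the genes were at least 2-fold lower and each window holds GC boxes. Since the boxes were part of the choice, their presence in these windows is no result. Sema3d, Slit2, Robo2 and Plxna2 fell more than Sema7a and are not shown. The windows come from RefSeq in build GRCm38.p6 and run from 250 bases before to 50 after the start of transcription, 5′ to 3′ on the gene's own strand. They are chr9:57939862-57940161 on the plus strand, chr10:94944796-94945095 on the minus strand and chr15:32244563-32244862 on the plus strand. Capitals mark matches of 6 searched motifs on either strand, here the GC box GGGCGG that Sp1 binds and, in Sema7a and Sema5a, 1 antioxidant response element each (TGACNNNGC).
Sema7a: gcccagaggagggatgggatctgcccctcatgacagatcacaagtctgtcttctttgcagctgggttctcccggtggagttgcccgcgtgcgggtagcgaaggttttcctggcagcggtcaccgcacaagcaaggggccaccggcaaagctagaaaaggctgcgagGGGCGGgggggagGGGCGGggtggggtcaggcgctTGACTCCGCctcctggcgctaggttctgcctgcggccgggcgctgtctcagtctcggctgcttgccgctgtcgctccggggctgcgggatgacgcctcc
Plxnc1: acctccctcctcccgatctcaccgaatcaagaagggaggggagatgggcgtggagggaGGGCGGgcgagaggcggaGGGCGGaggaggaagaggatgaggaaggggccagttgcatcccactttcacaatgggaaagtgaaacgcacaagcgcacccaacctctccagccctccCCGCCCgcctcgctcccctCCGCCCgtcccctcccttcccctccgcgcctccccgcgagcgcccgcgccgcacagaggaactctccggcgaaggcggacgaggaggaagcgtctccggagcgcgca
Sema5a: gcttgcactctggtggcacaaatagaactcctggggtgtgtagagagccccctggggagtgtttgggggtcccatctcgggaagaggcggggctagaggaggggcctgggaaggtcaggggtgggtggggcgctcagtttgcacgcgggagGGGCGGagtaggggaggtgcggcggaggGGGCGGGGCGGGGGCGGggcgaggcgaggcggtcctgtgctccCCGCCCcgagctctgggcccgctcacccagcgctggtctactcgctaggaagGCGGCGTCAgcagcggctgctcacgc

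The GC box occurred 2 times in the Sema7a window, 4 times in that of Plxnc1 and 5 times in that of Sema5a, where some copies overlap. Windows were found for 44 of the 54 guidance genes, 59 windows in all since some genes have several starts. The GC box lay in 67.6% of 37 windows of genes that fell, in 90.9% of 11 windows of genes that rose and in 35.7% of all 32851 windows, which include those of noncoding genes. The antioxidant response element lay in 16.2% of the windows of genes that fell, in 0 of 11 windows of genes that rose and in 12.4% of all windows. The AP-1 site TGANTCA lay in 5.41%, 9.09% and 7.81% of these windows in the same order, and the TEAD site GGAATG in 5.41%, 9.09% and 14.7%. The TATA box TATAAA lay in 2.70% of the windows of genes that fell, in 0 of the 11 and in 13.6% of all windows. The CEBP-ATF response element TGATGNAA lay in 0 windows of either group and in 3.97% of all windows. A match says only that these letters lie in the window.

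Among the remaining plexins, Plxnb2 and Plxnd1 rose while Plxnb1 fell. Plxnb1, the receptor of semaphorin 4D, had 4.46, 6.71 and 5.47 FPKM in cyclophosphamide libraries against 22.03, 22.3 and 22.3 FPKM in untreated libraries, a log2 fold change of -2.00 ± 0.13 (SE, adjusted p = 7.6e-06). Plxnb2, a receptor of class 4 semaphorins including semaphorin 4C, had 74.9, 74.1 and 73.8 FPKM with cyclophosphamide against 58.4, 62.1 and 58.7 FPKM without (0.31 ± 0.06, adjusted p = 0.0016). Every drug library of Plxnb2 lay above every untreated library, and the change was small. Plxnd1, the plexin of endothelial cells, averaged 5.43 ± 0.73 FPKM with cyclophosphamide and 3.89 ± 0.14 FPKM without (SD, n = 3 each), a log2 fold change of 0.46 ± 0.11. Plxnb3 had 1 read with cyclophosphamide and 5 without and was not tested. The makeup of the plexins shifted accordingly. Their summed level was 143 to 146.5 FPKM with cyclophosphamide and 218.3 to 228.2 FPKM without, and Plxnb2 made up 50.6% to 52.4% of it with cyclophosphamide and 25.7% to 27.9% without. Plxnc1 made up 3.99% to 5.25% with cyclophosphamide and 25.9% to 30.5% without.

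**Figure D2:**
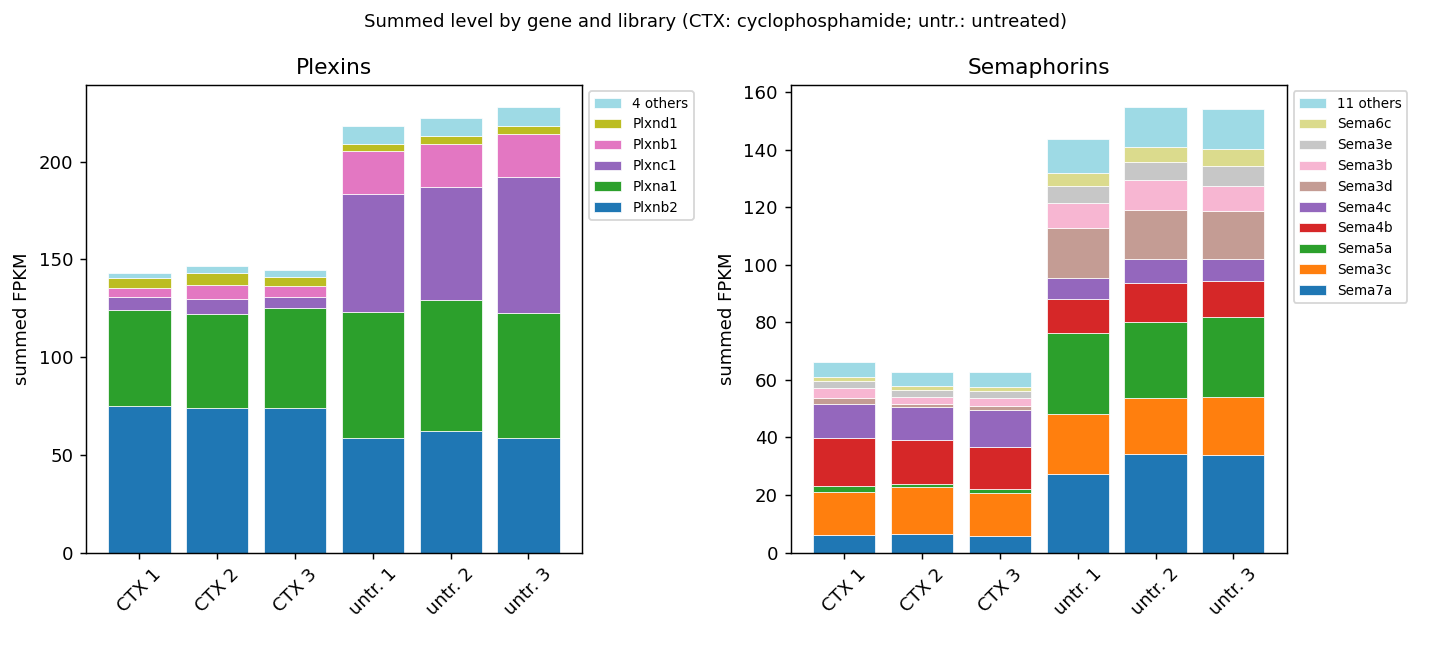
Summed FPKM of the plexins (left) and semaphorins (right) in each library, stacked by gene, with the cyclophosphamide libraries (CTX) left of the untreated ones (untr.). Plxnc1, Sema5a and Sema7a shrink to thin bands in the cyclophosphamide libraries, while Plxnb2, Sema4b and Sema4c do not.

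The membrane-bound class 4 and class 6 semaphorins moved unevenly. Sema4c, which signals through plexin B2, had 11.8, 11.6 and 12.8 FPKM in cyclophosphamide libraries against 7.11, 8.41 and 7.84 FPKM in untreated libraries, a log2 fold change of 0.63 ± 0.09 (SE, adjusted p = 0.00031). Sema4b averaged 15.5 ± 1.18 FPKM with cyclophosphamide and 12.6 ± 0.94 FPKM without (SD, n = 3 each; 0.30 ± 0.08, adjusted p = 0.013). These were the 2 semaphorins that rose among 19 tested, and Plxnb2 rose with them, while 15 semaphorins fell. Sema4d, the plexin B1 ligand also known from lymphocytes, averaged 1.42 ± 0.15 FPKM with cyclophosphamide and 2.53 ± 0.23 FPKM without (-0.79 ± 0.14). Sema4f had 0.184, 0.253 and 0.186 FPKM with cyclophosphamide against 1.39, 1.58 and 1.39 FPKM without (-2.34 ± 0.17, or -1.02 with a pseudocount of 1). Sema4g had 0.985, 0.836 and 1.13 FPKM with cyclophosphamide against 1.98, 2.60 and 2.67 FPKM without (-1.21 ± 0.17, or -0.78 with a pseudocount of 1). The groups of both genes were separate, at low levels. Sema6c, a transmembrane semaphorin, had 1.62, 1.55 and 1.61 FPKM with cyclophosphamide against 4.55, 5.22 and 5.87 FPKM without (-1.64 ± 0.12, adjusted p = 1.4e-05). Sema6d, a plexin A1 ligand, had 0.437, 0.317 and 0.460 FPKM with cyclophosphamide against 1.04, 1.24 and 1.42 FPKM without (-1.40 ± 0.19, or -0.66 with a pseudocount of 1). Sema6b fell at under 1 FPKM (-1.52 ± 0.22, or -0.57 with a pseudocount of 1). Sema4a (-0.42 ± 0.19, adjusted p = 0.078) and Sema6a (-0.10 ± 0.17, adjusted p = 0.61) did not pass the threshold, and Sema5b, with 12 reads with cyclophosphamide and 13 without, was not tested. Over all 20 semaphorins the summed level was 62.7 to 66.3 FPKM with cyclophosphamide and 143.7 to 154.9 FPKM without. Sema4b, Sema4c and Sema3c made up the largest shares with cyclophosphamide, at 23.1% to 25.4%, 17.9% to 20.5% and 22.6% to 26.0%, against 7.98% to 8.78%, 4.95% to 5.43% and 12.4% to 14.6% without.

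**Figure D3:**
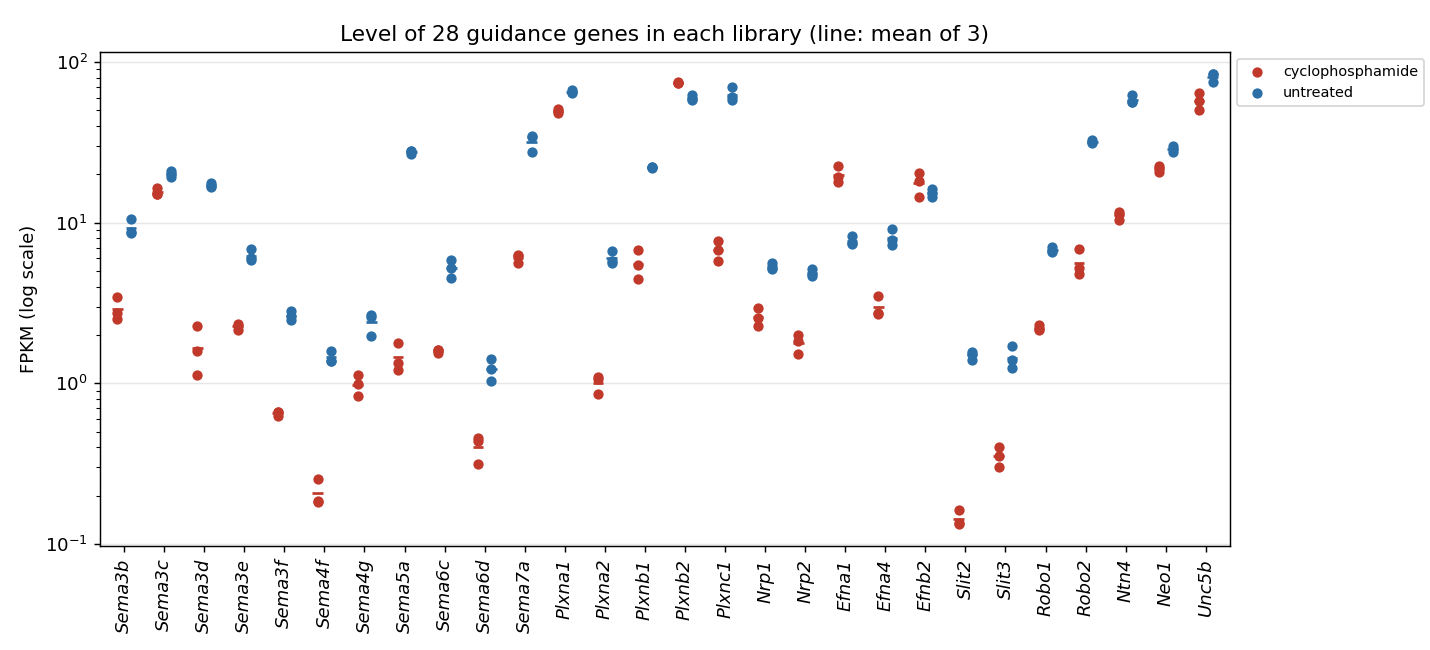
FPKM (log scale) of the 28 named guidance genes in each library, with cyclophosphamide in red left of untreated in blue and a line at each mean. Of these genes, Efnb2 is the one whose groups overlap, and Plxnb2 and Efna1 lie higher with cyclophosphamide.

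Slit2, Slit3 and their receptors Robo1 and Robo2 fell. Slit2 (ENSMUSG00000031558), a secreted repellent, had 0.162, 0.136 and 0.134 FPKM in cyclophosphamide libraries against 1.57, 1.51 and 1.40 FPKM in untreated libraries. Its log2 fold change was -2.71 ± 0.16 (SE, adjusted p = 4.2e-06), or -1.13 with a pseudocount of 1 and -3.35 in limma-voom, and it rested on 189 reads with cyclophosphamide and 1929 without. Slit3 had 0.400, 0.303 and 0.353 FPKM with cyclophosphamide against 1.39, 1.25 and 1.71 FPKM without (-1.77 ± 0.18, or -0.85 with a pseudocount of 1). Slit1, the family member known mainly from the nervous system, did not pass (-0.30 ± 0.23, adjusted p = 0.28). Robo2 (ENSMUSG00000052516) was the most abundant Robo, with 6.81, 4.77 and 5.20 FPKM with cyclophosphamide against 32.5, 31.5 and 31.6 FPKM without (-2.51 ± 0.12, adjusted p = 2.2e-06). Robo1 had 2.18, 2.30 and 2.14 FPKM with cyclophosphamide against 7.04, 6.68 and 6.54 FPKM without (-1.57 ± 0.09, adjusted p = 4.5e-06). In all 4 genes the groups were separate. Robo3 and Robo4, whose values were seen before they were chosen for naming, rose at under 1 FPKM. Robo3, a divergent Robo of commissural axons, had 0.452, 0.668 and 0.558 FPKM with cyclophosphamide against 0.116, 0.084 and 0.026 FPKM without, from 199 reads with cyclophosphamide and 26 without. Its log2 fold change was 1.93 ± 0.25 (adjusted p = 0.00024), or 0.53 with a pseudocount of 1 and 3.06 in limma-voom. Robo4, the endothelial Robo, had 0.332, 0.284 and 0.393 FPKM with cyclophosphamide against 0.196, 0.195 and 0.190 FPKM without (0.57 ± 0.18, adjusted p = 0.022, or 0.16 with a pseudocount of 1). The Robo4 call was lost without cyclophosphamide replicate 3 (adjusted p = 0.080), without untreated replicate 1, 2 or 3 (adjusted p = 0.0501, 0.0503 and 0.057) and with no filter on low counts (0.15). Of the endothelial markers given above Esam rose, Tek (-0.64, adjusted p = 0.060) and Cdh5 (-0.32, adjusted p = 0.50) were not called, and the sum without Esam was 0.392 to 0.692 FPKM with cyclophosphamide and 0.556 to 0.752 FPKM without.

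The ephrins were the family whose summed level was not lower, and its members went different ways. Efna1 (ENSMUSG00000027954), a GPI-anchored ligand first found as a cytokine-induced endothelial gene, had 22.5, 17.9 and 19.2 FPKM in cyclophosphamide libraries against 7.46, 8.20 and 7.34 FPKM in untreated libraries. Its log2 fold change was 1.36 ± 0.10 (SE, adjusted p = 1.0e-05). Efna4 (ENSMUSG00000028040), another GPI-anchored ephrin, had 3.49, 2.72 and 2.75 FPKM with cyclophosphamide against 7.77, 9.10 and 7.29 FPKM without (-1.40 ± 0.13, adjusted p = 4.2e-05). For both genes the groups were separate, in opposite directions. Efna2 (-0.41 ± 0.12, adjusted p = 0.015) and Efna5 (-0.52 ± 0.14, adjusted p = 0.010) fell slightly, and Efna2 had adjusted p = 0.060 without untreated replicate 3. Efna3 did not pass (-0.48 ± 0.30, adjusted p = 0.18), and its value was -0.13 without cyclophosphamide replicate 3 (adjusted p = 0.58). The transmembrane ephrins, which also signal into the cell that carries them, were not called. Efnb2, the arterial ephrin and the most abundant of the 3, had 20.4, 14.5 and 18.1 FPKM with cyclophosphamide against 14.4, 15.2 and 16.2 FPKM without (0.19 ± 0.12, adjusted p = 0.19), with overlapping groups. Single libraries moved the Efnb2 value, to 0.08 without cyclophosphamide replicate 1 (adjusted p = 0.51) and to 0.33 without cyclophosphamide replicate 2 (adjusted p = 0.012). The coordinates of Efnb2 overlap those of the same-strand gene E230020D15Rik, which had 157 reads with cyclophosphamide and 54 without. Efnb2 itself had 6221 reads with cyclophosphamide and 5314 without. Efnb1 had a value of 0.24 ± 0.14 (adjusted p = 0.15), or 0.41 without untreated replicate 2 (adjusted p = 0.0061) and 0.13 without untreated replicate 1 (adjusted p = 0.43), and Efnb3 one of 0.34 ± 0.22 (adjusted p = 0.19). Summed over the 8 ephrins, the level was 52.5 to 64.6 FPKM with cyclophosphamide and 45.9 to 52.3 FPKM without, of which Efna1 made up 33.5% to 34.8% with cyclophosphamide and 15.03% to 16.3% without.

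Efna1, Efna3 and Efna4 lie side by side on the minus strand of chromosome 3, with no other protein-coding gene wholly between them. Efna1 spans chr3:89271733-89281142 and Efna4 chr3:89333390-89338028. Efna3 lies 32.8 kb from Efna1 and 10.4 kb from Efna4. The promoter windows of the pair that moved in opposite directions are shown for comparison, with the same source, length and marking as above. They are chr3:89280902-89281201 on the minus strand and chr3:89337979-89338278 on the minus strand, and the Efna1 window holds 1 GC box while that of Efna4 holds none of the 6 motifs.
Efna1: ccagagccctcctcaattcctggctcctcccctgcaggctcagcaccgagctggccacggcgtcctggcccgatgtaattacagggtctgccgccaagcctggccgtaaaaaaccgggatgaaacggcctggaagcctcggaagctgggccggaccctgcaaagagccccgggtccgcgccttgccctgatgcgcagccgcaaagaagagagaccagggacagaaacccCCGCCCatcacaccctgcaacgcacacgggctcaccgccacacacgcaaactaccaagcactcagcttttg
Efna4: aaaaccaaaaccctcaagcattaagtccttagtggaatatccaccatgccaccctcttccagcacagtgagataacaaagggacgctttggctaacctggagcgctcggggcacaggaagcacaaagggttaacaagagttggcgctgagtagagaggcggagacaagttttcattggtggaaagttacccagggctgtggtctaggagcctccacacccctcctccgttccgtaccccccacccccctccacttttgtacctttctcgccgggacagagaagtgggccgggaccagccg

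Further guidance genes lie close to each other on a chromosome, and with 35 of 50 lower, pairs that both fell are frequent wherever the genes lie. Robo1 and Robo2 lie 845.7 kb apart on chromosome 16 with no protein-coding gene wholly between them, and both fell. Robo4 and Robo3 lie 553 bases apart on chromosome 9 with their ends facing, and both rose. The sources used here do not give the strand setting of the counting, so reads past the end of either could have been counted to the other. Sema3d, Sema3a and Sema3e follow each other on chromosome 5 at distances of 536.5 and 422.7 kb, with 1 other protein-coding gene wholly between Sema3a and Sema3e, and all 3 fell. Sema3b and Sema3f lie 72.3 kb apart on chromosome 9 with 3 protein-coding genes between them, and both fell. Sema4a, not called, and Efna1, which rose, lie 810.5 kb apart on chromosome 3 with 31 protein-coding genes between them. Members of a locus differed in level, with Sema3d at 17.1 ± 0.54 FPKM and Sema3a at 0.690 ± 0.06 FPKM in untreated libraries (SD, n = 3 each).

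**Figure D4:**
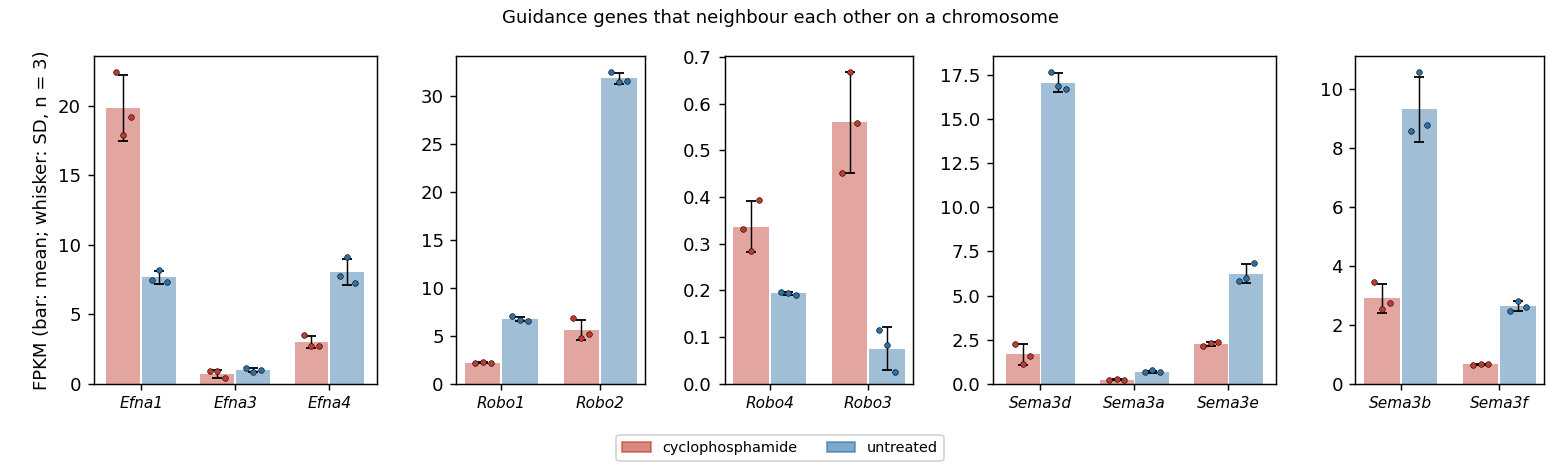
FPKM of guidance genes that neighbour each other, 1 panel per locus in chromosomal order, with cyclophosphamide (red) left of untreated (blue), bars for means, whiskers for SD (n = 3) and points for libraries. Efna1 is higher and Efna4 lower with cyclophosphamide, Robo1 and Robo2 are lower and Robo4 and Robo3 higher, and the panels have separate axes.

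Netrin 4 fell and the abundant netrin receptors were moderately lower. Ntn4 (ENSMUSG00000020019), a netrin of basement membranes that binds laminin, had 10.4, 11.7 and 11.4 FPKM in cyclophosphamide libraries against 56.2, 56.3 and 62.0 FPKM in untreated libraries. Its log2 fold change was -2.37 ± 0.07 (SE, adjusted p = 4.0e-07), and the groups were far apart. Ntn1, the classical netrin, had 76 reads with cyclophosphamide and 81 without and did not pass (-0.11 ± 0.37, adjusted p = 0.81). Unc5b, a netrin receptor and known p53 target, had the highest mean over all 6 libraries, although Plxnb2 was higher in the cyclophosphamide libraries, with 50.3, 63.9 and 57.5 FPKM with cyclophosphamide against 74.8, 83.6 and 83.6 FPKM without (-0.50 ± 0.10, adjusted p = 0.0021). Neo1, which encodes neogenin and also binds repulsive guidance molecules, had 20.6, 22.5 and 21.9 FPKM with cyclophosphamide against 30.1, 27.5 and 28.5 FPKM without (-0.41 ± 0.06, adjusted p = 0.00073). Both receptors were lower in every drug library. Unc5a and Unc5d fell at under 1 FPKM, by 1.29 and 0.82 on the log2 scale, or 0.28 and 0.17 with a pseudocount of 1. In limma-voom their values were -2.30 and -1.44. Unc5a had 11 reads with cyclophosphamide and 59 without and was the 1 guidance gene that passed the filter on low counts through the untreated libraries alone, so its call carries no weight, and it was not tested with the filter at a mean of at least 1 CPM. Unc5d had 36 reads with cyclophosphamide and 97 without. Dcc and Unc5c, with 6 reads each in untreated libraries and 0 in cyclophosphamide libraries, were not tested, too few reads for a difference to be detectable.

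Guidance genes tend to be long, and gene span went along with the falls. The 50 tested spanned a median of 51.5 kb, against 24.9 kb for the 12715 other protein-coding genes tested. Among genes over 100 kb, 20 of 23 guidance genes fell and 0 rose, with a median log2 fold change of -1.40. Among 1775 other protein-coding genes of that span 62.0% fell, with a median of -0.65. Among genes under 30 kb, 12 of 21 guidance genes fell and 5 rose, with a median of -0.62, whereas 33.7% of 7189 others fell, with a median of 0.02. Between 30 and 100 kb, 3 of 6 guidance genes fell, Unc5a among them, and 2 rose. Their median was -0.10, against a median of 0.01 and a share lower of 35.4% for 3751 others. Spearman's rho of span with log2 fold change was -0.39 across the 50 guidance genes and -0.14 across the 12715 others, as a description over genes that share the same libraries. With spans under 30 kb, Sema7a, Plxnb1, Sema3b, Sema3f, Sema3g, Sema4f, Sema4g, Sema6b, Sema6c and Efna4 were at least 2-fold lower. The part of gene span in these changes was not tested.

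**Figure D5:**
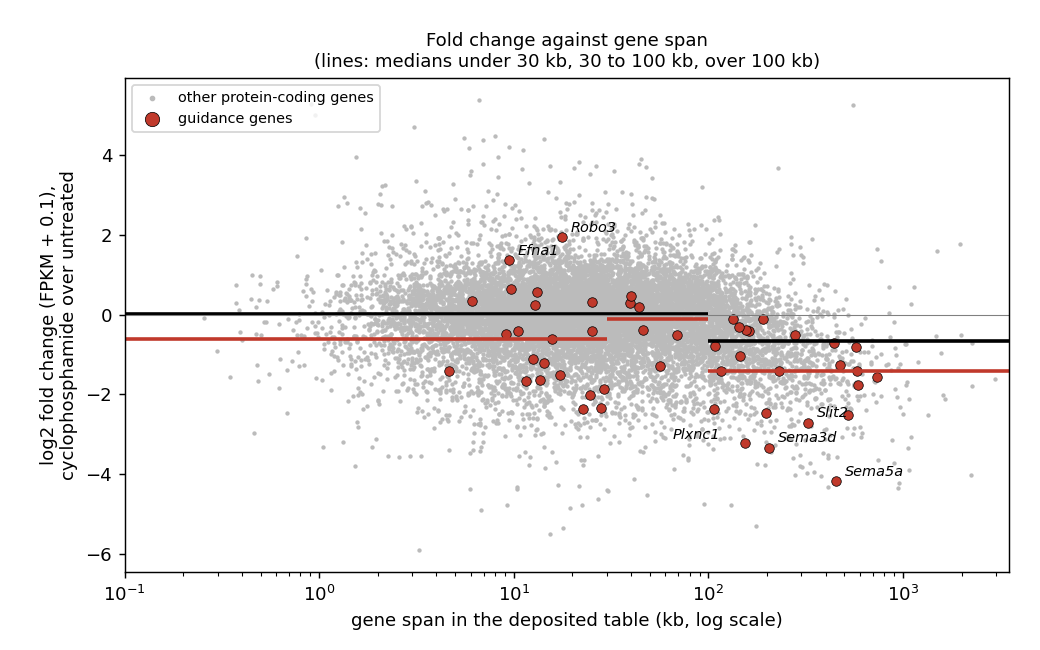
Log2 fold change (FPKM + 0.1), cyclophosphamide over untreated, against gene span in kb (log scale) for guidance genes (red) and other protein-coding genes tested (grey). Lines are medians in 3 span classes, -0.62, -0.10 and -1.40 for guidance genes (red) and 0.02, 0.01 and -0.65 for the others (black).

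Partner genes of these families, taken from 3 lists of known receptors, coreceptors and effectors, fell more often than they rose. The lists were chosen with earlier results of these data known, so their counts are no independent support. Of 118 partner genes 99 were tested, and 61 fell and 21 rose, with a median log2 fold change of -0.50 beside -0.02 for all genes tested. Over all genes tested 35.8% fell and 33.1% rose, the shares to set beside the counts of each list. The part of gene span in these counts was not tested. Among 14 Eph receptors, which bind ephrins, 9 were tested, and 2 rose and 4 fell, which is near the share lower over all genes. Epha2, the main receptor of ephrin-A1 in epithelia, had 101.5, 120.3 and 105.9 FPKM in cyclophosphamide libraries against 64.4, 68.7 and 67.4 FPKM in untreated libraries (log2 fold change 0.71 ± 0.08, SE). Epha2 and its ligand gene Efna1 were thus both higher, as was Epha4 (0.89 ± 0.14), while Ephb4, the receptor of ephrin-B2 on veins, fell by 0.73 and Ephb6, which lacks kinase activity, by 1.33. Among 26 of 38 coreceptors and other ligands tested, 6 rose and 16 fell. Vegfa, whose product competes with semaphorins for neuropilin 1, had 302.2, 303.9 and 299.0 FPKM with cyclophosphamide against 21.8, 23.9 and 22.8 FPKM without, a log2 fold change of 3.72 ± 0.06, opposite to that of Nrp1. Lrig3 (1.67 ± 0.14), which limits netrin expression in the mouse inner ear, and the neogenin ligand Rgmb (1.17 ± 0.12) rose, and Flrt1 (-1.93 ± 0.20), the UNC5 ligand gene Flrt3 (-1.66 ± 0.29) and the plexin B1 partner Met (-1.46 ± 0.09) fell. Among 64 of 66 intracellular effectors tested, 13 rose and 41 fell. These counts and the partner total include Crmp1, at 0 to 0.008 FPKM with cyclophosphamide and 0.151 to 0.285 FPKM without. Ngef is also included, at 0.371 to 0.486 FPKM with cyclophosphamide and 0.015 to 0.031 FPKM without. Crmp1 passed the filter on low counts through the untreated libraries alone and Ngef through the cyclophosphamide libraries alone. Their calls carry no weight, and the other partner genes were not checked for this. Rnd1, a GTPase that binds plexins, had 7.88, 7.18 and 6.79 FPKM with cyclophosphamide against 1.46, 1.93 and 1.34 FPKM without (2.15 ± 0.15). The Slit-Robo GTPase-activating gene Srgap3 (1.64 ± 0.21) and the UNC5-binding death kinase gene Dapk1 (1.32 ± 0.13) rose. Dpysl2, which encodes the collapsin response mediator CRMP2, had 0.833, 0.950 and 0.743 FPKM with cyclophosphamide against 5.79, 5.55 and 5.72 FPKM without (-2.62 ± 0.13). Dpysl5, a related mediator, fell by 2.20 and the Rac activator gene Dock1 by 2.11 on the log2 scale.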

How the data were processed

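Expression was measured by RNA-seq in 6 libraries, 3 with cyclophosphamide and 3 untreated, grouped by the treatment label. The submitters' processing notes name CASAVA, HISAT2 (version 2.0.5) and the build GRCm39. For the counting tool, strand setting and annotation, the sources used here give no statement. The authors deposited 1 table whose name says raw counts, but the values themselves are FPKM. Multiplied by the gene length in the table, 100% of values were whole multiples of 1 step within 0.01 of a read, which gave reads per gene. These reads were used for filters, limma-voom and read numbers. Summed reads and the library sizes implied by the FPKM had ratios of 0.975 to 1.04. Of 54409 gene IDs shared with GENCODE M21, 98.3% had the same start and end (53 of the 54 guidance genes, all but Dcc), so coordinates are read as GRCm38.

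Genes entered the fit with 10 or more reads in 3 or more libraries and a total of 15 or more, which left 14885. They were fitted on log2(FPKM + 0.1) in limma (version 3.58.1, R 4.3.3) with the trend option, two-sided, with Benjamini-Hochberg adjustment over all of them at 0.05. Fold changes on this scale understate the change of low genes. The fit was tested on simulated data in which far fewer genes changed than were called here. That test therefore does not speak to the scaling of these data. The number of libraries and the reads behind low genes limit the precision. Alternatives were pseudocounts of 0.5 and 1, no filter, a mean of at least 1 CPM, 3 other scalings, limma-voom, the replicate number as a block and leaving out each library. The members and gene lists were chosen with earlier results of these data known. The named genes follow the rule given in the text, with the highest gene of each of 9 roles (all semaphorins counted as 1 role) and the 10 genes of highest mean level, and for each partner list up to 3 called genes of largest rise and of largest fall with a mean of at least 1 FPKM in either group. Of 201 list entries 2 were matched through a synonym and 1 was not matched.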

Additional observations from a re-analysis of the deposited data

How the results depend on the processing

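The counts of guidance genes kept to 6 to 8 higher and 33 to 35 lower over all alternatives run, against 7 and 35. All 35 remained lower under the 3 other scalings and in limma-voom, and 34 with a pseudocount of 0.5 or 1 (without Plxna4), with no filter (without Plxna4) and at a mean of at least 1 CPM (without Unc5a, which was not tested there). Leaving out 1 library gave 6 to 8 higher and 33 to 34 lower, and 18 to 21 partner genes higher and 57 to 61 lower. The scalings moved the median log2 fold change of all genes by at most 0.09. With upper-quartile scaling 5543 genes rose and 4801 fell, against 4932 and 5325. No called guidance gene changed direction in any alternative, while Ntn1, not called, changed sign without cyclophosphamide replicate 2 and without untreated replicate 3. No pairing by replicate number showed in the values. Same-numbered libraries correlated at -0.08, 0.005 and -0.03 in their deviations from the group means, and no library correlated best with its own number. With 3 libraries per group this cannot exclude a pairing. With the replicate block 7 guidance genes were higher and 34 lower, without Plxna4, and over all genes 4772 were higher and 5165 lower. A pseudocount of 1 reduced the size of the fold change by over 1.5 times for 14 called guidance genes of low level.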
